A study of Mus musculus with 12 samples.

Results

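Transcripts of 6 genes, all higher after stimulation of splenic dendritic cells (DCs) in wild-type as well as alymphoplasia (aly) mice, were followed through every probe set that carries their symbol alone: Saa3, Mt2, Sdc4, Cnn3, Gadd45b and 1700011B04Rik. They are 6 of 18194 genes with such a probe set, and they are covered by 14 of 45037 probe sets, all of which passed the filter on low values (above the 40th percentile of the array on 3 or more arrays). The probe set of 1700011B04Rik passed it through the 6 treated arrays alone. The genes were selected on the treatment responses and on the treated levels of these same arrays, so those values are given as a description with no test. Only the untreated comparison between the genotypes was tested for them. It was not itself a criterion of the selection, but its arrays enter the responses that were, so the test is not independent of the choice.

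The 4 groups were untreated aly mice, untreated heterozygous littermates (called WT here, although they carry 1 copy of the aly allele), and aly and WT mice given 25 µg of LPS together with 100 µg of the agonistic CD40 antibody FGK4.5 into the peritoneum, with DCs taken 6 hours later. The aly allele is a germline mutation of Map3k14, the gene of the kinase NIK, so every cell of the mouse carries it and not DCs alone. The sources used here do not give the age of the mice or their strain background. Each group had 3 Affymetrix arrays, each array held RNA of CD11c-selected and flow-sorted DCs pooled from 3 mice, and a p-value therefore measures the spread between pools. In such bulk samples, fewer cells of a type and less RNA per cell cannot be told apart.

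Treated aly replicate 1 stood apart from the other arrays: the ratio of its Actb 3′ to 5′ signal, a measure of RNA integrity, was 55.8, where WT arrays had 1.39 to 1.94 and other aly arrays 1.78 to 5.92, and its highest rank correlation with another array was 0.665, against 0.808 to 0.883 for the rest. The same ratio for Gapdh was 45.7 on it, 4.58 to 8.73 on WT arrays and 7.1 to 20.7 on other aly arrays. The value of 20.7 was that of treated aly replicate 2, which remains in the results without treated aly replicate 1. The summed intensity of 8 DC markers, most of it from the MHC class II genes Cd74, H2-Aa and H2-Ab1, was 99742 on treated aly replicate 1 and 34800 to 62810 on the other 11 arrays. The values of the DC markers Itgax (229.7), Flt3 (267), Zbtb46 (44) and Irf8 (1107) on treated aly replicate 1 were each the lowest of the 12 arrays, while that of Batf3 (2990) was the highest. Poly-A spike-in signals split replicate 1 of every group (4.15 to 21.8) from replicates 2 and 3 (52.9 to 497). Responses of the 6 genes are therefore given with and without treated aly replicate 1, and their differences also within these sets of arrays. The part of RNA quality and of the spike-in split in the results was not tested.

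NIK drives the non-canonical branch of NF-kB signalling, in which receptors such as CD40 lead to processing of p100 into p52, whereas LPS acts through Toll-like receptor 4 and the canonical branch. The 6 genes come from different functional classes. Saa3 encodes a serum amyloid A protein, an acute phase apolipoprotein made by macrophages and other cells outside the liver, and Mt2 encodes a metallothionein, a small protein that binds zinc and copper. Sdc4 encodes syndecan-4, a cell surface proteoglycan with heparan sulfate chains, and Cnn3 encodes the actin-binding protein calponin 3. Gadd45b encodes a stress-inducible protein that binds MAP kinase kinases and restrains growth, and 1700011B04Rik is annotated by RefSeq as a long non-coding RNA.

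The sequences in front of the transcription starts are shown for the 4 genes that held a match to 1 of 5 motifs, since these are the motifs of factors that act in inflammatory and metal responses. They were taken from RefSeq (GRCm38.p6), run from 250 bases before the start to 50 bases after it, and were found for 6 of 6 genes. The Saa3 start of this table lies within the span that the gene annotation gives to Saa3. All are written 5′ to 3′ on the strand of the gene, with matched bases in capitals.
Saa3, chr7:46715627-46715926, minus strand: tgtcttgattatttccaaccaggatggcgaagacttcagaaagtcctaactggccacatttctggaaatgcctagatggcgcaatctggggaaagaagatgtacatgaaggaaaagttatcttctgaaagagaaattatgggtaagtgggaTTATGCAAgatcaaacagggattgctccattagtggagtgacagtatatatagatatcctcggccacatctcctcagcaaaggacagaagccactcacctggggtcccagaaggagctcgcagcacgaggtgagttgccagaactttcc
Mt2, chr8:94172368-94172667, plus strand: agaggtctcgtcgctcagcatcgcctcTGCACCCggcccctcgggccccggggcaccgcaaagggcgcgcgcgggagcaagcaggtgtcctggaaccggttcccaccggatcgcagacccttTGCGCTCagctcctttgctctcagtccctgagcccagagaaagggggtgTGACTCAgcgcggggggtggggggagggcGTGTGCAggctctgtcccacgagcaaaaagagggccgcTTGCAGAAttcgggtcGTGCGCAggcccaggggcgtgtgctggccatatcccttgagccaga
Sdc4, chr2:164443139-164443438, minus strand: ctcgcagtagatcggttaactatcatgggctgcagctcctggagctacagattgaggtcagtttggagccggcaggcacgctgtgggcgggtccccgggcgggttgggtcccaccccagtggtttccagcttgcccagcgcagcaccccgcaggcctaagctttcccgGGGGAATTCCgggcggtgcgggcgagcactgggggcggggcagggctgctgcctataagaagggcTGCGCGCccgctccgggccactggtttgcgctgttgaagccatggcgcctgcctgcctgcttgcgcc
1700011B04Rik, chr13:35181373-35181672, plus strand: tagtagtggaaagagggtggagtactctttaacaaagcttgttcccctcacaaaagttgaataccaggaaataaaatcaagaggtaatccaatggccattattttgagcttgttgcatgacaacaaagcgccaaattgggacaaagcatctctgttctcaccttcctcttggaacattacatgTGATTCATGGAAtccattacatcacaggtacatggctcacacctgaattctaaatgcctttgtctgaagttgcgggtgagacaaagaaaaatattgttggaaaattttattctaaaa

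Both strands were searched, and positions count the start site as 0. The metal response core (TGCGCNC or TGCACNC), which is the site of the zinc-sensing factor MTF1, was found 4 times in the Mt2 promoter and once in that of Sdc4, and 25.7% of 32851 promoters of the same length held it. The kappa B consensus was found in Sdc4 at -82 to -73 (8.46% of all promoters). The AP-1 motif TGANTCA was found in Mt2 and in 1700011B04Rik (7.81%), and in the latter it overlapped the only match to the STAT motif TTCNNNGAA (8.30%). The C/EBP motif TTGCNNAA was found in Saa3 at -99 to -92 and in Mt2 at -12 to -5 (10.8%). The windows of Cnn3 (chr3:121426291-121426590, plus strand) and Gadd45b (chr10:80929841-80930140, plus strand) held no match to these letters. GC content ran from 38.3% in 1700011B04Rik to 78.3% in Cnn3, with a median of 52.7% over all promoters. A match describes the letters only, and factor binding was not measured.

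Saa3, the acute phase apolipoprotein, was measured by a single probe set. In WT untreated DCs its intensity was 23.7, 23.5 and 18.4 (replicates 1, 2 and 3), and in aly untreated DCs it was 106, 140 and 214. After treatment it was 2876, 691 and 140 in WT and 18318, 3801 and 2112 in aly. All untreated aly arrays lay above all untreated WT arrays, whereas the treated groups overlapped, because WT replicate 1 exceeded aly replicate 3. The log2 response (treated minus untreated, on log2 of the intensity plus 16) was 4.18 ± 0.81 (SE) in WT, an 18.1-fold change, and 5.02 ± 0.81 in aly, a 32.4-fold change. Without treated aly replicate 1 the aly response was 4.12 ± 0.73, which differed from that of WT by -0.06 ± 0.97. The Saa3 response also moved with single WT arrays: it was 3.14 without WT treated replicate 1 and 5.24 without WT treated replicate 3, and the aly minus WT difference was 1.88 and -0.23, respectively.

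Mt2 was low in both untreated groups, with intensities of 36, 34.9 and 23.1 in WT and 88.3, 39.5 and 55.1 in aly. After treatment the values were 1175, 545 and 293 in WT and 5558, 382 and 533 in aly. The treated groups overlapped, and the highest value came from treated aly replicate 1. The log2 response was 3.65 ± 0.72 in WT and 3.84 ± 0.72 in aly, and it was 2.65 ± 0.47 in aly without that array. The difference between the responses thus went from 0.19 ± 1.02 to -1.0 ± 0.62 (SE).

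Sdc4 was covered by 2 probe sets that correlated at r = 0.94 over the 12 arrays. The brighter, 1417654_at, read 252, 57.1 and 118 in WT untreated and 356, 799 and 381 in aly untreated DCs, then 7261, 1519 and 2159 in WT treated and 12656, 3880 and 3375 in aly treated DCs. Treated aly replicates 2 and 3 both lay within the range of the treated WT arrays. Its log2 response was 4.39 ± 0.62 in WT and 3.48 ± 0.62 in aly, or 2.88 ± 0.58 without treated aly replicate 1. The other probe set, 1448793_a_at, read 70.5, 52.1 and 51.7 in WT untreated, 246, 175 and 260 in aly untreated, 3591, 964 and 824 in WT treated, and 38734, 1379 and 2095 in aly treated DCs. Treated aly replicate 1 was far above the other 11 arrays here, and its removal took the aly response from 4.34 ± 0.86 to 2.84 ± 0.49, beside 4.29 ± 0.86 in WT. For both probe sets the mean treated aly level without that array was close to the mean of treated WT, at 99.5% and 96.9% of it, while the untreated aly level was higher than that of WT, so that the log2 response was smaller.

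Cnn3 had 6 probe sets, which shared the direction of the responses but not their size. All but 1426724_at have names ending in _x_at, and whether those also read other transcripts was not tested. The brightest, 1436836_x_at, read 88.4, 49.0 and 95.6 in WT untreated and 66.4, 103 and 168 in aly untreated DCs, and 8487, 2726 and 3830 in WT treated and 7044, 3277 and 1726 in aly treated DCs. Its treated groups overlapped, and its log2 response was 5.62 ± 0.52 in WT (49.1-fold) and 4.82 ± 0.52 in aly (28.2-fold), or 4.30 without treated aly replicate 1. By contrast, 1426724_at read 35.9, 34.0 and 18.4 in WT untreated and 37.7, 60.2 and 71.6 in aly untreated, and 2329, 703 and 1033 in WT treated and 196, 232 and 296 in aly treated DCs. All treated aly arrays lay below all treated WT arrays on this probe set, and the log2 response was 4.76 ± 0.43 in WT and 1.84 ± 0.43 in aly (27.1-fold and 3.58-fold).

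The remaining Cnn3 probe sets had log2 responses of 4.80 in WT and 3.54 in aly (1436759_x_at), 4.60 and 3.37 (1455570_x_at), 3.52 and 3.41 (1456380_x_at), and 1.95 and 0.92 (1438354_x_at, the dimmest, with no value above 165). Without treated aly replicate 1 these aly responses were 3.25, 3.04, 2.70 and 0.79. All 4 gave a smaller aly response in either set, and treated aly replicates 2 and 3 lay below every treated WT array on each. The treated aly mean of Cnn3 as a share of the WT mean accordingly ran from 17.8% (1426724_at) to 96.9% (1456380_x_at) with all arrays, and from 19.5% to 49.9% without treated aly replicate 1.

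Gadd45b, the stress-inducible growth regulator, was covered by 3 probe sets. The brightest, 1449773_s_at, read 917, 666 and 505 in WT untreated and 859, 583 and 673 in aly untreated DCs, and 7058, 6429 and 8534 in WT treated and 7436, 2066 and 3336 in aly treated DCs. Treated aly replicate 1 lay within the range of treated WT arrays, and replicates 2 and 3 lay below every treated WT array. The log2 response was 3.40 ± 0.44 in WT (10.6-fold) and 2.39 ± 0.44 in aly (5.25-fold), or 1.89 without treated aly replicate 1.

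The second Gadd45b probe set, 1450971_at, gave a log2 response of 3.37 ± 0.59 in WT and 2.41 ± 0.59 in aly, or 1.58 without treated aly replicate 1. It read 6161, 4062 and 5885 in WT treated and 11624, 1670 and 2581 in aly treated DCs, again with only replicate 1 of aly at or above the WT values. The remaining one, 1420197_at, was dim (13.1 to 129 on all arrays), with responses of 0.73 in WT and 0.44 in aly, or 0.03 without that array. It was the only probe set of the 14 whose treated and untreated aly arrays overlapped.

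The long non-coding RNA 1700011B04Rik was measured by a single probe set. It read 0.8, 8.2 and 15.8 in WT untreated and 1.4, 15.0 and 2.4 in aly untreated DCs, and 1361, 1568 and 1380 in WT treated and 1163, 596 and 915 in aly treated DCs. The mean treated level was 1436 ± 114 (SD, n = 3) in WT and 891 ± 284 in aly, or 755.5 ± 225 on the 2 arrays left without replicate 1. The treated aly arrays all lay below the treated WT arrays. The log2 response was 5.95 ± 0.39 in WT (61.7-fold) and 5.35 ± 0.39 in aly (40.8-fold), or 5.13 without treated aly replicate 1. Because the untreated values are smaller than the offset of 16, these folds understate the change on the linear scale.

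**Figure D1:**
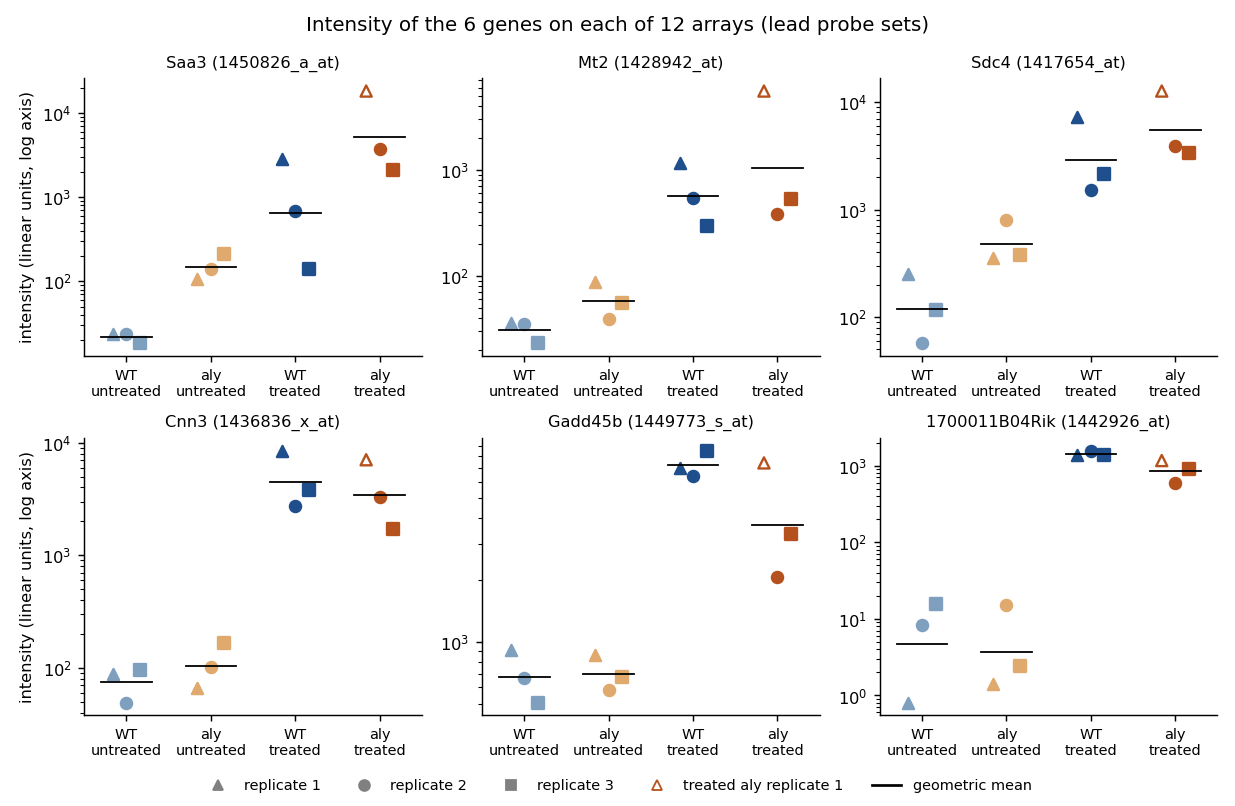
Intensity of the brightest probe set of each of the 6 genes on every array (log axis), by group, with the shape giving the replicate, an open triangle for treated aly replicate 1 and a line at the geometric mean. Saa3 and Sdc4 read higher in all untreated aly arrays (106 to 214 and 356 to 799) than in all untreated WT arrays (18.4 to 23.7 and 57.1 to 252), and 1700011B04Rik read lower in all treated aly arrays (596 to 1163) than in all treated WT arrays (1361 to 1568).

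Over the 14 probe sets, the treated WT arrays lay above all untreated WT arrays in 14 (13.8% of all 34205 probe sets did so), and the treated aly arrays above all untreated aly arrays in 13 (6.29% of all). These counts follow from how the genes were selected, and so do the shares given next. The 1308 probe sets set beside them were chosen on the WT response alone, so the medians are a description with no test. The share of the WT log2 response that the aly response reached had a median of 76.5% over the 14 probe sets (38.6% to 120%), beside 38.4% over the 1308 probe sets called higher in WT (adjusted p under 0.05 in limma), and without treated aly replicate 1 the medians were 66.2% and 33.6%. By gene and with all arrays it was 120% for Saa3, 105% for Mt2, 79.2% and 101% for Sdc4, 89.9% for 1700011B04Rik, 59.8% to 71.3% for Gadd45b and 38.6% to 96.7% for Cnn3. Without treated aly replicate 1 the bright probe sets of Gadd45b reached 55.7% and 46.8%, those of Sdc4 65.5% and 66.2%, Mt2 72.6%, 1700011B04Rik 86.3% and Saa3 98.6%. The dim Gadd45b probe set 1420197_at reached 3.73%, and the Cnn3 probe sets reached 40.8% and 41.4% (1438354_x_at and 1426724_at) to 76.5% (1436836_x_at and 1456380_x_at). Shares of 65.5% or more in both sets of arrays were found for Saa3, 1700011B04Rik, Mt2 and both Sdc4 probe sets. They were also found for 4 of the 6 Cnn3 probe sets, each with a name ending in _x_at. Not among them were Gadd45b and the Cnn3 probe sets 1426724_at and 1438354_x_at. The bound was set after the values were seen, at the lowest share of Sdc4, so passing it is a description only.

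**Figure D2:**
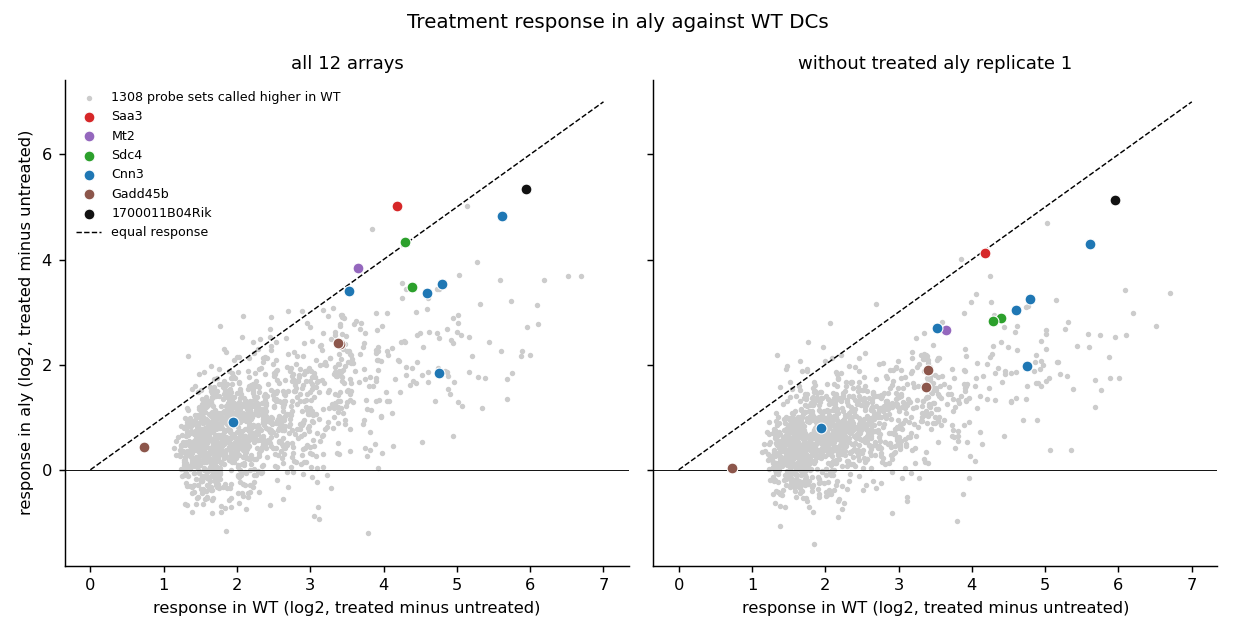
Log2 response to treatment in aly against that in WT for the 14 probe sets, with and without treated aly replicate 1, over the 1308 probe sets called higher in WT (grey), with a dashed line at equal responses. Saa3 lies above the line of equal response with all 12 arrays (5.02 in aly, 4.18 in WT) and 1426724_at of Cnn3 lies far under it (1.84 and 4.76).

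The aly response was smaller than the WT response in 11 of the 14 probe sets with all arrays, with Saa3, Mt2 and 1448793_a_at of Sdc4 on the other side, and it was smaller in 14 of 14 without treated aly replicate 1. Within replicate 1 alone it was smaller in 5 and larger in 9 (median difference 0.25), and within replicates 2 and 3 it was smaller in 13 and larger in 1, Saa3 (median -1.18). The 14 probe sets stand for 6 genes, with 6 for Cnn3 (r = 0.85 to 0.99 between them) and 3 for Gadd45b, so these counts are not of separate genes. Among all 34205 probe sets, 0.0497% were called in the interaction, and the median difference was 0.08, or -0.03 without treated aly replicate 1. That share is of calls and not of directions. Among the 1308 probe sets called higher in WT, the upper quartile of the share reached in aly was 57.9%, so most had the smaller response in aly. Saa3 differed by 1.04 within replicate 1 and by 0.74 within replicates 2 and 3, with the larger response in aly in both. The 1426724_at probe set of Cnn3 (-3.52 and -2.62) and 1700011B04Rik (-0.27 and -0.76) had the smaller response in aly within both sets. Mt2 went from 1.22 to -0.33, the brightest Gadd45b probe set from 0.17 to -1.60, and the brightest Cnn3 probe set from 0.07 to -1.23, so the sign of each depended on the set of arrays.

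**Figure D3:**
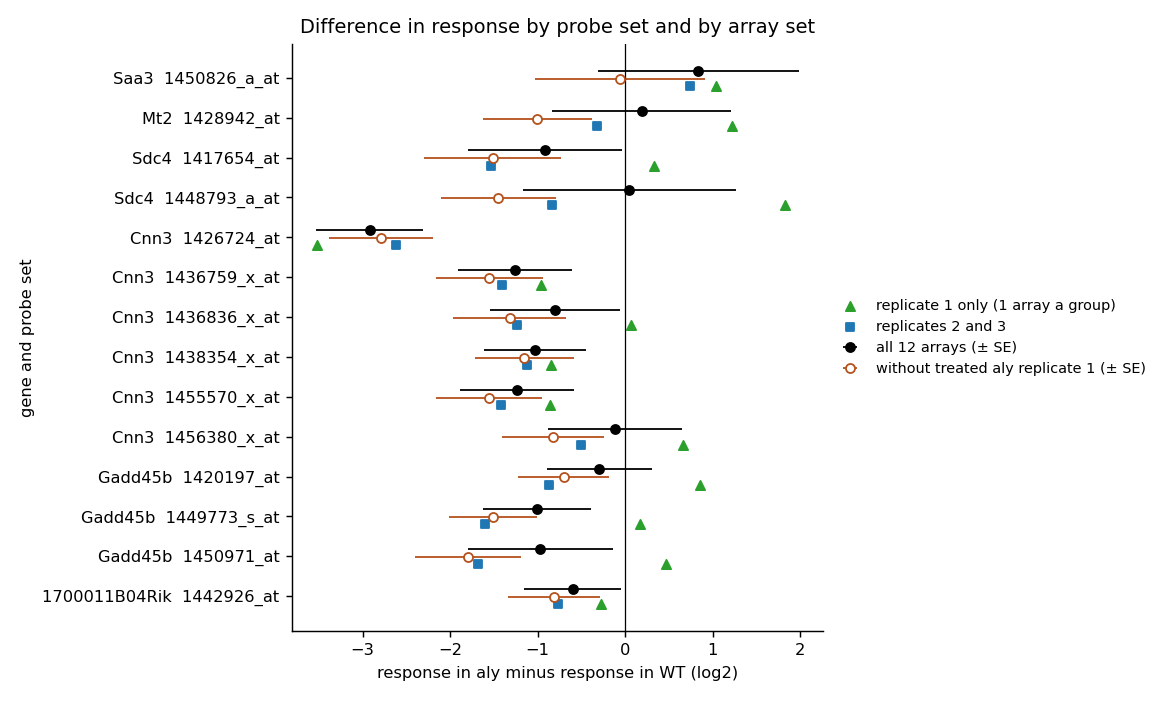
Difference of the log2 responses, aly minus WT, for each of the 14 probe sets with all 12 arrays and without treated aly replicate 1 (circles, ± SE), within replicate 1 (triangles) and within replicates 2 and 3 (squares). Without treated aly replicate 1 the values run from -2.79 (1426724_at of Cnn3) to -0.06 (Saa3).

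Among treated DCs, 0 of the 14 probe sets had all aly arrays above all WT arrays (13.7% of all probe sets did), 2 had them all below (9.02% of all), namely 1426724_at of Cnn3 and 1700011B04Rik, and 12 overlapped. Without treated aly replicate 1, that is with 2 arrays against 3, 0 lay above (21.2% of all probe sets), 9 lay below (15.0% of all) and 5 overlapped: Saa3, Mt2, both of Sdc4 and the brightest of Cnn3. The treated aly mean of Saa3 was 654% of the WT mean with all arrays and 239% in that set, and that of 1448793_a_at of Sdc4 was 785% and 96.9%. The 9 that lay below without treated aly replicate 1 all belonged to Cnn3, Gadd45b or 1700011B04Rik.

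Before treatment, none of the 14 probe sets differed between the genotypes at an adjusted p under 0.05 (limma on all 12 arrays, Benjamini-Hochberg over all probe sets). Of all probe sets, 0.371% were called. The smallest unadjusted p-values of that test were those of 1417654_at of Sdc4 (0.00875) and of Saa3 (0.0178). The former was 1.84 ± 0.62 higher in aly on the log2 scale (3.58-fold, 95% interval 0.53 to 3.15, adjusted p = 0.305). The latter was 2.12 ± 0.81 higher (4.33-fold, interval 0.41 to 3.82, adjusted p = 0.386). Both were higher in 3 of 3 aly arrays, as was 1448793_a_at of Sdc4 (1.70 ± 0.86, interval -0.10 to 3.51, adjusted p = 0.557). These untreated arrays also enter the responses that chose the genes, so the test is not independent of that choice. When only the compared groups were fitted, Saa3 (adjusted p = 0.00503) and 1448793_a_at (0.0167) passed, and 1417654_at passed with array weights (0.0446) and in replicates 2 and 3 alone (0.00938). The share of all probe sets called in those fits is not given here, so these passes have no background. With treated aly replicate 1 left out, limma gave adjusted p-values of 0.103 for Saa3, 0.0745 for 1417654_at and 0.0503 for 1448793_a_at, and again called 0 of 14 (1.97% of all probe sets were called). With all arrays, Mt2 differed by 0.66 ± 0.72 (adjusted p = 0.822) and 1700011B04Rik by -0.13 ± 0.39 (0.949). The latter exceeded the filter level on no untreated array, so its test could show little. The 6 Cnn3 probe sets ranged from -0.16 to 0.67 (0.668 to 0.962), and the 3 Gadd45b probe sets from 0.04 to 0.45 (0.828 to 0.984). All untreated aly arrays lay above all untreated WT arrays in 5 of the 14 (12.1% of all probe sets): Saa3, Mt2, both of Sdc4 and 1426724_at of Cnn3.

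Marker sums of some other cells moved with the genotype beside these values, while other sums overlapped or went the other way. Of 6 erythroid markers 3 were measured, with sums of 19 to 336 on the WT arrays and 485 to 2843 on the aly arrays, and 1 was called higher in untreated aly. The summed intensity of 9 of 9 red pulp macrophage markers was 1476 to 15040 in WT untreated and 40045 to 65831 in aly untreated DCs, and 1531 to 12825 in WT treated and 27838 to 58643 in aly treated DCs, and 6 of the 9 were called higher in untreated aly. Within each treated group Saa3 had the same order of arrays as this sum, and among untreated aly arrays (sums of 50209, 40045 and 65831) it did not. On WT untreated replicate 1, where the sum was 15040 beside 1476 and 1568, Saa3 read 23.7 beside 23.5 and 18.4, and 1417654_at of Sdc4 read 252 beside 57.1 and 118. Of the 8 neutrophil markers 6 were measured, with a sum of 15166 on treated aly replicate 1 and 61.9 to 3066 on the other 11 arrays. Stromal and endothelial markers (12 of 12) summed to 281 to 687 in WT untreated and 763 to 1332 in aly untreated DCs. None of them was called higher in untreated aly. After treatment the sums overlapped, at 844 to 2188 in WT and 973 to 2783 in aly. Kdr alone read 1356, 545 and 1408 on treated WT arrays. The sum of monocyte markers (5 of 6) went the other way in treated DCs, at 5698 to 10009 in WT and 4806 to 5526 in aly. Most of it was Ms4a4c, at 5202 to 9900 in WT treated and 3692 to 4824 in aly treated DCs. F13a1 was higher in aly treated DCs (33.2 to 137.7, beside 9.5 to 25.8 in WT), and Ccr2, Fcgr1 and Chil3 overlapped. The untreated monocyte sums overlapped (3027 to 5029 in WT and 1865 to 3243 in aly), and 1 marker was called higher in untreated aly. Sums of B cell markers (4 of 5) overlapped between the genotypes. T cell markers (2 of 5, both below the filter level on untreated WT arrays) had low sums that were higher in aly. These were 3.1 to 17.3 in WT untreated and 17.7 to 89.5 in aly untreated DCs. After treatment they were 4.3 to 25.9 in WT and 36.2 to 66.7 in aly. Among the macrophage markers Cd163 was below the filter level on the treated WT arrays, and among the neutrophil markers Mmp8 was below it on the untreated aly arrays. The part of these cells in the values of Saa3, Mt2 and Sdc4 was not tested.

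The closest relatives of the 6 genes did not all share their responses, and some of them were dim. Mt1, which encodes the other main metallothionein, read 205, 89.6 and 120 in WT untreated, 792, 469 and 374 in aly untreated, 1311, 696 and 356 in WT treated, and 39204, 1732 and 1603 in aly treated DCs. As for Mt2, the highest value came from treated aly replicate 1. Its response was 2.26 ± 0.86 in WT (adjusted p = 0.139) and 3.17 ± 0.86 in aly (0.182), and without that array the WT response passed (0.00134) while the aly response did not (1.65, adjusted p = 0.253). The other Mt1 probe set had the reverse order with all arrays, 1.33 in WT and 0.797 in aly. Mt3 was 0.20 and -1.17 (-1.33 without that array) and was not called. It was dim, at 4.2 to 20.1 on the WT arrays and 1.2 to 74.5 on the aly arrays, so its test could show little.

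Gadd45g, a growth arrest protein of the same family as Gadd45b, rose by 2.86 ± 0.39 in WT (adjusted p = 0.000186), from 158 to 255 untreated to 1271 to 1668 treated. In aly it went from 147 to 297 untreated to 264 to 568 treated, a response of 0.78 ± 0.39 (adjusted p = 0.455). The difference between the responses was -2.08 ± 0.56 (limma interaction, adjusted p = 0.307), and -2.37 without treated aly replicate 1 (0.0427). Gadd45a had -0.31 in WT and 0.82 in aly (0.32 without that array) and was not called in either.

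Of the syndecans, Sdc1 had responses of 1.35 ± 0.53 in WT (adjusted p = 0.159) and 2.47 ± 0.53 in aly (0.0637), and without treated aly replicate 1 the WT response passed (0.0426) while the aly response was 1.91 (0.148). Sdc2 had -0.20 in WT and 0.23 in aly, or -0.32 without that array. It was dim, at 3.2 to 14.5 on the WT arrays and 15 to 107 on the aly arrays. Sdc3 was the only related gene called between the untreated genotypes, 2.41 ± 0.47 higher in aly (adjusted p = 0.0325), with 0.95 and 1.47 on its other probe sets, and this call was lost in 9 of 23 alternatives. Cnn2, the calponin measured beside Cnn3, had 1.43 in WT (adjusted p = 0.0613, and 0.0138 without that array) and 0.90 in aly, or 0.54 without it. The serum amyloid genes Saa2 (0.24 in WT and 0.95 in aly, or 0.30 without that array) and Saa4 (0.75 and -0.53, or -0.33) were not called in either response. Both were dim, so their tests could show little. Saa2 read 1.7 to 18.5 on the WT arrays and 3.1 to 101.5 on the aly arrays, and Saa4 read 1.6 to 24.4 and 7 to 73.6.

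**Figure D4:**
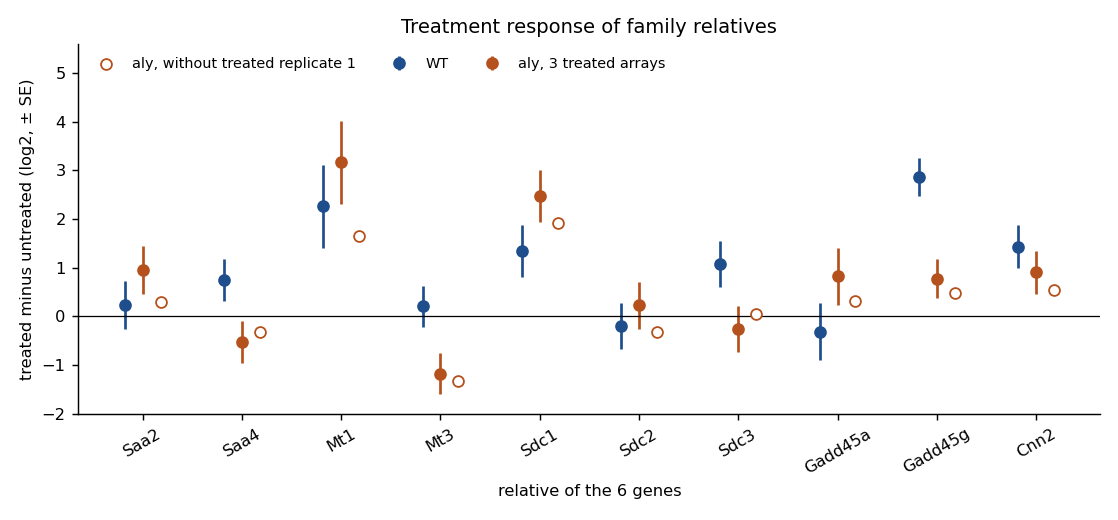
Log2 response (treated minus untreated, ± SE) in WT and in aly, and in aly without treated replicate 1 (open circles), for the measured relatives of the 6 genes. Gadd45g had 2.86 in WT and 0.78 in aly, and the open circle of Mt1 (1.65) lies under its value with all arrays (3.17).

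Lists of related genes set these values in context. Of 117 listed genes 99 were measured, and 22 rose and 4 fell with treatment in WT (3.82% and 2.72% of all probe sets did), while 2 rose and 0 fell in aly (0.257% and 0.0175%; 36 had an unadjusted p under 0.05). In limma's interaction, the test of whether the responses differ, 0 of 99 were called (14 at an unadjusted p under 0.05), and the median difference of the responses was -0.20. The share of all probe sets at an unadjusted p under 0.05 is not given here, so the counts of 36 and 14 have no background. When treated aly replicate 1 was left out, 34 rose and 12 fell in WT (6.43% and 6.98% of all probe sets), 1 rose in aly (0.225%), and 2 were called in the interaction (0.459%), Gadd45g and Cdkn1a, with a median difference of -0.41. The 22 that rose in WT reached a median of 54.5% of their WT response in aly, or 47.2% without treated aly replicate 1. Socs3, the feedback inhibitor of IL-6 and STAT3 signalling, rose in both genotypes, by 4.30 ± 0.46 in WT (adjusted p = 1.7e-05) and by 3.43 ± 0.46 in aly (0.00268). Cdkn1a, the cell cycle inhibitor p21, rose by 4.73 ± 0.50 in WT (1.6e-05) and by 2.61 ± 0.50 in aly (0.0367, and 0.0601 without treated aly replicate 1). The aly call of Socs3 was lost with an offset of 1 (0.0604) and with only the compared groups fitted (0.0792), and that of Cdkn1a in 14 of 23 alternatives.

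Among acute phase genes, the class of Saa3, 1 of 7 measured rose in WT: Lcn2, which encodes the siderophore-binding protein lipocalin 2, by 4.53 ± 0.72 (adjusted p = 0.000782), beside 2.33 ± 0.72 in aly (0.27). Of the 7, 4 were called higher in WT, with Hp, Cp and Steap4 (adjusted p = 0.023, 0.0264 and 0.0228) beside Lcn2, when treated aly replicate 1 was left out. Of 12 GADD45 partners and growth arrest genes, 2 rose (Cdkn1a and Ppp1r15a, 2.79) and 1 fell (Map2k6, a kinase of the p38 pathway, by 2.22), and 4 fell without treated aly replicate 1. Of 14 genes related to actin and calponin, 4 rose: Marcksl1 (3.41), Fscn1, the actin bundler of mature DCs (2.96), Tagln2, which carries a calponin-like domain (2.40), and Actn1 (2.07). Of 10 genes of the IL-6 and STAT3 response, 5 rose (Socs3, Bcl3 by 3.17, Stat3 by 2.62, Jak3 by 1.79 and Junb by 1.66) and 1 fell (the receptor Il6ra, by 1.94). Of 11 genes of the canonical NF-kB response, 6 rose (Tnfaip2 by 2.91, Tnfaip3 by 2.18, Traf1 by 2.02, Zc3h12a by 2.00, Icam1 by 1.92 and Rel by 1.91), and none was called in aly, where Tnfaip3 read 0.66 and Traf1 2.15 (adjusted p = 0.0585). These are the WT responses, and in aly only Socs3 and Cdkn1a of all these genes were called.

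Over the 12 arrays, the log2 values of the 6 genes correlated with each other at r = 0.71 (Saa3 with Gadd45b) to 0.97 (Cnn3 with 1700011B04Rik). These correlations describe arrays that share treatment, genotype and array quality. With all arrays, Mmp14 (r = 0.98), 2610024D14Rik (0.96) and Pdzk1ip1 (0.95) had the patterns most like that of Saa3, and they also ranked 1 to 3 among all genes without treated aly replicate 1. Mmp14 encodes a membrane-bound matrix metalloproteinase. Ehd1 (0.99), Sct (0.97) and Acod1 (0.96), the last of which encodes the enzyme that makes itaconate, were nearest to Mt2, and without that array Acod1 ranked 18. Palld (0.97), Dram1 (0.96) and Pik3r1 (0.96) were nearest to Sdc4, and Pik3r1 ranked 11 without that array. Socs3, Car13 and Adgrg6 (0.98 each) were nearest to Gadd45b and ranked 5, 2 and 3 without it. Cnn3 was nearest to 1700011B04Rik (0.97), then to Bcl2l14 and Gstt1 (0.96 each), which ranked 9, 14 and 15 without it at nearly the same r (0.97, 0.96 and 0.96). Nearest to 1700011B04Rik were Anxa2, Socs3 and Cnn3 (0.97 each), which ranked 4, 6 and 8 without it.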

How the data were processed

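The authors deposited linear intensity values of 45101 probe sets for 12 arrays. Each array had a trimmed mean of 150.001. How the authors summarised probes and removed background is not given in the sources used here, and RNA was amplified by a second in vitro transcription per the labels' protocols. Probe sets were named through the platform annotation: 34958 carried 1 symbol, 932 several and 9211 none. All value columns were matched to samples.

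Values were used as log2(intensity + 16), keeping 34205 probe sets that exceeded the array's 40th percentile on 3 or more arrays, without controls. limma 3.58.1 (R 4.3.3) was fitted to all 12 arrays with 1 mean per group. Calls had a Benjamini-Hochberg adjusted p under 0.05 over all probe sets of a contrast, and p-values of genes are limma's. The fit was tested on simulated data. The SE comes from the fit, and the SD from linear values. Related genes were taken at their brightest probe set. The genes and all lists were chosen with earlier results of these data known. By rule, every probe set of the 6 genes, their family members, up to 4 related genes a list by the p in WT and up to 2 by that in aly, and 3 correlated genes each were eligible to be named. Rel, Traf1, Icam1 and the other called genes beyond the first 4 of a list were added to complete its count. Alternatives varied the offset, filter, normalization, blocks, groups fitted, array weights, probe set choice and arrays.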

Additional observations from a re-analysis of the deposited data

Results flagged for a closer look

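Related genes whose treated arrays all lay on one side of the untreated mean in WT and all on the other side in aly are given as values, with the log2 response difference (aly minus WT) and the adjusted p of limma's interaction. Saa4, a constitutive serum amyloid gene, differed by -1.28 (adjusted p = 0.693), and its other probe set had responses of -0.00328 in WT and 0.033 in aly. Ndst2 and Hs6st1, which encode enzymes that sulfate the heparan chains carried by syndecans, differed by -2.35 (0.497) and -1.32 (0.652). Tpm1, an actin-binding tropomyosin, differed by -1.38 (0.563). None passed the interaction test, and without treated aly replicate 1 the differences were -1.08, -1.44, -1.32 and -1.32 with adjusted p-values of 0.484, 0.246, 0.34 and 0.273.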

How the results depend on the processing

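The count of 14 probe sets called between untreated genotypes, 0 in the report, was 2 with only the compared groups fitted, 1 with array weights and 1 in replicates 2 and 3 alone (chosen after seeing the data), and 0 without any single array. The shares of all probe sets called with only the compared groups, with array weights or in replicates 2 and 3 are not given here. The count of related genes called in WT, 26 in the report, was 13 with an offset of 1, 48 with only the compared groups, 49 with array weights and 13 to 46 without 1 array (13 without WT untreated replicate 3, 15 without WT treated replicate 1 or 3, 46 without aly treated replicate 1). The count in aly, 2, was 0 with an offset of 1 or only the compared groups, 1 with an offset of 64, with no filter or in replicates 2 and 3, 6 with the replicate block, 6 with a block for the spike-in split, and 1 to 4 without 1 array (4 without aly treated replicate 2 or 3, 1 without any of 9 others). In the interaction, 0 became 4 with array weights and 0 to 2 without 1 array (2 without aly treated replicate 1). Between untreated genotypes, 1 became 0 with an offset of 1 or 64, no filter or median centring, 2 with the replicate block, 4 with a block for the spike-in split, 7 with only the compared groups, 8 with array weights, 6 in replicates 2 and 3, and 0 to 8 without 1 array (8 without aly treated replicate 1, 2 without WT untreated replicate 1 or aly treated replicate 2, 0 without any other untreated array). The median log2 response of the 6 brightest probe sets, 4.29 in WT, was 3.58 (without WT treated replicate 1) to 4.92 without 1 array. That in aly, 4.33, was 3.54 with an offset of 64, 3.40 in replicates 2 and 3, and 3.5 (without aly treated replicate 1) to 4.81 without 1 array. The median difference, -0.70, was -1.16 to -0.29 without 1 array. No called value changed sign, though uncalled differences of Saa3, Mt2 and Sdc4 did, and the cause of each change was not tested. Same-numbered arrays of different groups correlated at -0.02 to 0.30 in their deviations (7 of 18 pairs over 0.1, and 1 of 36 pairs with different numbers). Not every same-numbered pair was over 0.1, so the replicate numbers were not taken to pair the samples. Same-numbered arrays were still more alike than others (median 0.08 beside -0.06), and the counts with the replicate block given above differ from those of the report. Array number and the spread between pools limit the precision, and the bounds of low intensities are unknown without presence calls.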

Other observations

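Genes that handle zinc and other metals, the processes around Mt2, were measured for 11 members: 0 were called in either response (limma), with median responses of -0.32 in WT and -0.14 in aly. Without treated aly replicate 1, Txnrd1 was called higher (1.52, adjusted p = 0.0103) and the zinc exporter gene Slc30a1 lower (-1.65, 0.0274) in WT. Of 14 genes of heparan sulfate synthesis and syndecan partners, 2 rose in WT: Gpc1, a heparan sulfate proteoglycan anchored in the membrane by a lipid (2.52 ± 0.50, adjusted p = 0.00453), and Cask, a scaffold protein that binds syndecans (1.52 ± 0.41, adjusted p = 0.0331). In aly they read 1.82 (adjusted p = 0.187) and 1.36 (0.253). With that array left out, 3 were called higher and 2 lower in WT. Of 10 glucocorticoid-responsive genes, 1 rose in WT, the phosphatase gene Dusp1 (1.5 ± 0.38, adjusted p = 0.0242). The kinase gene Sgk1 fell by 2.49 (0.0147) and Anxa1, which encodes the anti-inflammatory protein annexin A1, fell by 2.59 (0.00833), and none of the 10 was called in aly, where Anxa1 read -2.10 (0.166). With treated aly replicate 1 left out, 3 of the 10 were called higher and 3 lower in WT.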
